A study of Mus musculus with 2 samples.

Results

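The collagen genes were taken as the protein-coding rows of the deposited expression table whose mouse symbol has the form Col, a number, the letter a and a number. The rule found 44 genes among 21821 protein-coding rows and 55323 rows in all. They were followed in TgS1 cells, a mouse Schwann cell line with the labelled genotype TTR V30M tg, that is, with a transgene for a variant of human transthyretin. Both groups carry this transgene and there is no group without it. The cells of each group had grown long term in a single medium, either DMEM, a common basal medium, or a medium that is only labelled SCM. Each medium is represented in the table by 1 library of total RNA from this 1 line, so the differences below have no replicates behind them and carry neither a p-value nor an SD. In bulk RNA such as this, fewer cells with a message and less of it per cell cannot be told apart.

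Collagens are proteins of the extracellular matrix in which 3 chains wind into a triple helix, and some are heterotrimers whose chains come from separate genes. Schwann cells, the glia of peripheral nerves, surround themselves with a basement membrane that rests on a network of type IV collagen, and they also secrete type V collagen into the matrix outside it. Fibrillar collagens of types I and III form the bulk of connective tissue and are mainly products of fibroblasts. Most of the genes are divided into many exons. The members had a median of 48 merged exons per gene model, with a range of 3 (Col10a1) to 116 (Col7a1), against a median of 7 over all protein-coding rows, and 31 of the 44 had at least 40 exons, as did 1.91% of protein-coding rows.

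The libraries held 29085791 reads in DMEM and 36666676 in SCM. Levels are FPKM, a read measure scaled by gene model length and library total, and fold values are plain ratios of FPKM with 95% exact (Clopper-Pearson) intervals from the reads behind them. The intervals cover counting error only, not variation between cultures, and amplified reads are not independent molecules. The 7 Schwann cell markers reported here were above 1 FPKM in both libraries, among them Sox10, the lineage transcription factor, at 126 FPKM in the DMEM library and 113 in the SCM library. The fibroblast markers Dcn, Lum, Dpt and Pdgfra together came to 0.171 FPKM in DMEM and 0.0688 in SCM, and the 5 endothelial markers to 0.0552 and 0.0277 FPKM.

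Of the 44 collagen genes, 17 reached 1 FPKM in 1 or both libraries and are called measured here. In SCM, 6 of them stood at least 2-fold above DMEM and 0 at least 2-fold below, where the 2-fold limit applies to log2((FPKM in SCM + 1) / (FPKM in DMEM + 1)), a scale that understates the ratio of low genes. The higher genes were the basement membrane chains Col4a1 and Col4a2, the basement membrane zone collagen Col15a1, the nerve-associated Col28a1, the fibril-associated Col16a1 and the type I chain Col1a2. Over all 10081 measured protein-coding rows, 2.48% were at least 2-fold higher and 1.44% at least 2-fold lower. Of the 17 genes, 4 (Col15a1, Col16a1, Col1a2 and Col4a6) were measured through the SCM library alone and 0 through the DMEM library alone, so the count of higher genes is partly set by the filter. Among the 13 collagen genes with at least 1 FPKM in both libraries, 3 were higher (Col4a1, Col4a2 and Col28a1) and 0 lower, beside 1.97% and 1.22% of the 9535 protein-coding rows that met the same condition.

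The direction of the remaining genes was divided. Of the 11 measured genes within the 2-fold limit, 7 lay below 0 on the log2 scale and the others above. With the higher genes included, 10 of the 17 measured genes lay above 0, with 45.6% of measured protein-coding rows doing so. Of the 13 genes measured in both libraries, higher genes again included, 6 lay above 0, with 45.3% of such rows. The median log2 ratio was 0.23 over the 17 genes and -0.12 over the 13, and over measured protein-coding rows it was -0.03 in either case.

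**Figure D1:**
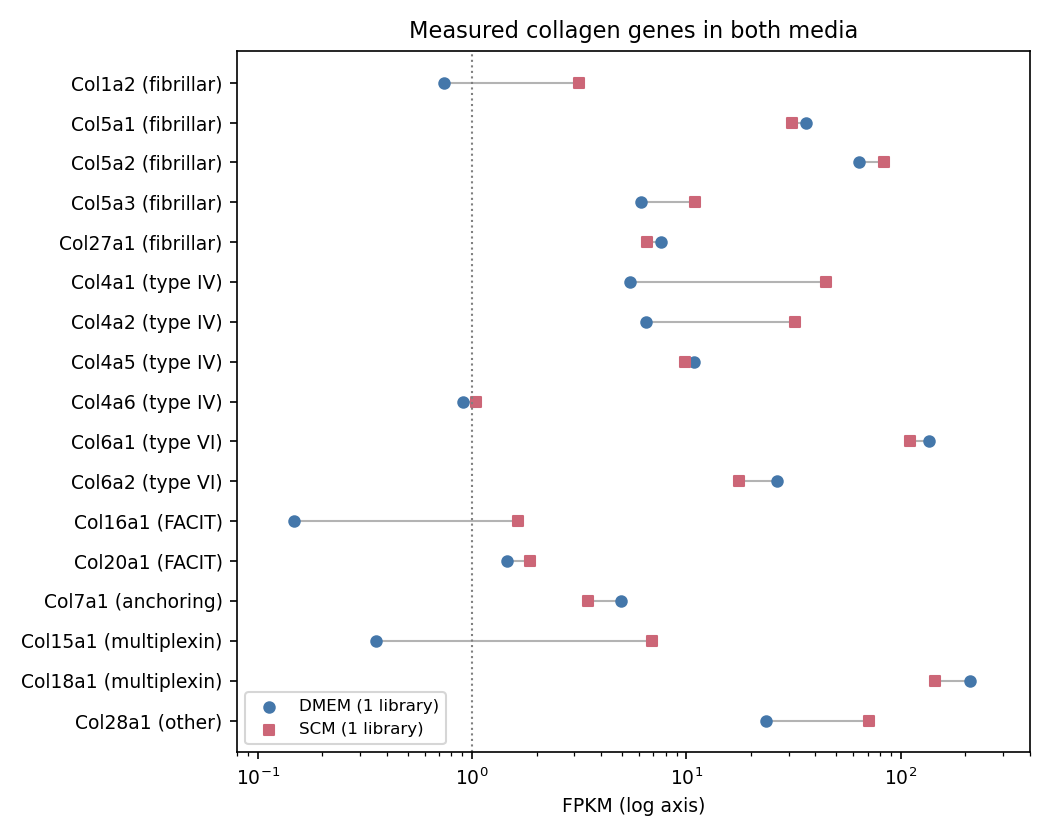
FPKM of the 17 measured collagen genes on a log axis, grouped by structural class, with circles for the DMEM library, squares for the SCM library and a dotted line at 1 FPKM. The widest gaps are those of Col15a1, Col16a1 and Col4a1, while Col18a1, Col6a1 and Col5a2 stand highest in both libraries.

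The upstream sequences of the higher genes are shown where they lie outside annotated untranslated regions, because these genes differed in the same direction and their start regions can be compared. RefSeq windows for GRCm38.p6 were matched for 35 of the 44 genes, some with more than 1 start. Each sequence below is the 250 bases before the RefSeq start, read 5′ to 3′ on the gene's strand, at chr4:47207762-47208011 (plus strand) for Col15a1, chr4:130047590-130047839 (plus strand) for Col16a1 and chr6:8192618-8192867 (minus strand) for Col28a1. Capitals mark matches on either strand to the letters TATAAA for the TATA box, the letters CCAAT for the box of that name, the letters GGGCGG for the GC box and the letters TGANTCA for an AP-1 site, and no 2 matches overlap.
Col15a1: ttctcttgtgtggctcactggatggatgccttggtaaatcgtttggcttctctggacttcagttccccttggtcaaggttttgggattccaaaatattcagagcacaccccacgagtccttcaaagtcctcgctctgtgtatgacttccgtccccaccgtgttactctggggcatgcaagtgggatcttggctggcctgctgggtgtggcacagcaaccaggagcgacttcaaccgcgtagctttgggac
Col16a1: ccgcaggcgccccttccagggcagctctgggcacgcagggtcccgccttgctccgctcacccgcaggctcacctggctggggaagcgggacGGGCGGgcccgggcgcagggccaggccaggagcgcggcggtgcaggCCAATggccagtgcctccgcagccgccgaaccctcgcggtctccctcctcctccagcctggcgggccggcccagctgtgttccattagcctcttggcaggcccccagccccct
Col28a1: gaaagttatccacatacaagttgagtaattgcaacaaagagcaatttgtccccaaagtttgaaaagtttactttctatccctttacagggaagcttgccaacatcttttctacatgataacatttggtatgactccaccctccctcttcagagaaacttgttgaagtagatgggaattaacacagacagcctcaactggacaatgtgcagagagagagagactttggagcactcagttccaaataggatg

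The 3 printed windows had little in common. The Col16a1 window was 75.6% G and C and held 1 GC box and 1 CCAAT box, whereas the Col15a1 window was 53.6% and the Col28a1 window 40.4% G and C, and both held 0 matches to the 4 motifs. The Col1a2 window overlaps an annotated untranslated region and is not printed, and it held 2 GC boxes and 1 CCAAT box. Among the higher genes, a CCAAT box thus stood in the windows of Col16a1, Col1a2, Col4a1 and Col4a2. Of the windows not printed, that of Col1a2 was 62% G and C, that of Col4a1 74.4% and that of Col4a2 73.6%. The median over all 32851 windows of this length was 52.4%, and over the 38 windows of collagen genes 59%. A GC box stood in 22 of these 38 windows (57.9%), compared with 32.7% of all windows. This motif is made of G and C only, and windows of like G and C content were not compared. CCAAT boxes stood in 13 of the 38 (34.2%), close to the 33.8% of all windows, TATA boxes in 5 (13.2% against 12.4%) and an AP-1 site in 1 (2.63% against 6.75%), that of Col6a1. These are matches of letters only.

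Col4a1 and Col4a2 encode the chains of the type IV collagen found in nearly all basement membranes, and they lie head to head on chromosome 8. In the GENCODE M21 annotation of GRCm38, Col4a1 spans chr8:11198423-11312826 on the minus strand and Col4a2 chr8:11312805-11449287 on the plus strand, so that their starts overlap by 22 bases. The 250 bases before either start overlap an annotated untranslated region and are not printed. The window before Col4a2 held 2 GC boxes and 1 CCAAT box, and that before Col4a1 held 1 CCAAT box.

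Col4a1 had 5.48 FPKM in DMEM (1189 reads) and 44.9 FPKM in SCM (12301 reads), 8.21-fold higher in SCM (7.73 to 8.72). Its neighbour Col4a2 had 6.45 FPKM in DMEM (1242 reads) and 32.0 FPKM in SCM (7766 reads), 4.96-fold higher (4.67 to 5.27). Among the 21821 protein-coding rows, Col4a1 ranked 5926 in DMEM and 742 in SCM, and Col4a2 ranked 5411 and 1161. The chains were not higher by the same factor. Col4a1 stood at 0.849 times the FPKM of Col4a2 in DMEM (0.783 to 0.920) and at 1.40 times in SCM (1.37 to 1.45), and these counting intervals do not overlap. Their exon models share 22 bases in the table, and the rule by which reads there were counted is not stated in any source at hand.

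The other type IV genes form the less widespread networks. Col4a5 had 10.8 FPKM in DMEM (2111 reads) and 9.87 FPKM in SCM (2432 reads), 1.09-fold lower in SCM (1.03 to 1.16). Col4a6, which lies head to head with Col4a5 on the X chromosome with 1308 bases between the annotated starts, had 0.901 FPKM from 209 reads in DMEM and 1.04 FPKM from 304 reads in SCM, and the interval of its ratio held 1 (0.964 to 1.38). Neither gene followed Col4a1 and Col4a2. In DMEM the FPKM of Col4a1 was 0.507 times that of Col4a5 (0.472 to 0.545), and in SCM it was 4.55 times that of Col4a5 (4.36 to 4.76), so the most abundant type IV chain gene was Col4a5 in DMEM and Col4a1 in SCM. The remaining pair, Col4a3 and Col4a4, starts 71 bases apart on chromosome 1. Col4a3 had 0 reads in both libraries, which allows at most 0.0103 FPKM in the DMEM library and 0.00821 in the SCM library, while Col4a4 had 3 reads in DMEM and 45 in SCM.

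Collagens XV and XVIII are the multiplexins, proteoglycan-like collagens of the basement membrane zone, and their genes went in opposite directions. Col15a1 (chr4:47208161-47313167, plus strand, GRCm38) had 0.357 FPKM in DMEM (66 reads) and 6.93 FPKM in SCM (1613 reads). This 19.4-fold higher value (15.2 to 25.2) was the highest fold among the 17 measured genes. Col18a1 (chr10:77052178-77166548, minus strand), whose product yields the fragment endostatin, was the most abundant collagen gene in both libraries, with 209 FPKM in DMEM (42782 reads) and 145 FPKM in SCM (37264 reads), 1.45-fold lower in SCM (1.43 to 1.47). It ranked 92 among protein-coding rows in DMEM and 153 in SCM. The exons of Col15a1 share 14 bases with an opposite-strand long noncoding row, Gm12426, which had 1 read in DMEM and 24 in SCM.

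Col28a1 encodes a short-helix collagen known from peripheral nerve, where it lies beside glia. It (chr6:7997808-8192617, minus strand) had 23.6 FPKM in DMEM (3370 reads) and 71.3 FPKM in SCM (12819 reads), 3.02-fold higher (2.90 to 3.14). The gene ranked 1763 among protein-coding rows in DMEM and 423 in SCM, and no other row of the table overlaps it. Among the collagen genes it was the sixth in DMEM and the fourth in SCM by FPKM.

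The beaded filaments of type VI collagen are built from the products of Col6a1, Col6a2 and a long chain, usually that of Col6a3. Col6a1 was the second most abundant collagen gene in both libraries, at 135 FPKM in DMEM (17238 reads) and 110.2 FPKM in SCM (17705 reads), 1.23-fold lower in SCM (1.20 to 1.25). Col6a2 had 26.4 FPKM from 6391 reads in DMEM and 17.6 FPKM from 5372 reads in SCM, 1.5-fold lower (1.45 to 1.56). Both were lower in SCM but within the 2-fold limit. The long chain genes were scarce. Col6a3 had 146 reads in DMEM and 68 in SCM, so that Col6a1 exceeded it 322-fold in FPKM in DMEM (274 to 382) and 711-fold in SCM (561 to 916). Col6a4, Col6a5 and Col6a6, the alternative long chains, had 0 reads in both libraries.

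The fibrillar class was represented mainly by type V collagen, which controls the diameter of collagen fibrils. Col5a2 had 64.0 FPKM in DMEM (17857 reads) and 83.8 FPKM in SCM (29458 reads), 1.31-fold higher (1.28 to 1.33). Its usual partner Col5a1 had 36.2 FPKM from 9017 reads in DMEM and 31.1 FPKM from 9749 reads in SCM, 1.17-fold lower in SCM (1.13 to 1.20). Col5a3, a type V chain gene known from Schwann cells, had 6.17 FPKM from 1221 reads in DMEM and 10.9 FPKM from 2729 reads in SCM, 1.77-fold higher (1.66 to 1.90), which fell short of the limit. The balance of these chains differed between the libraries. Col5a1 stood at 0.566 times Col5a2 in DMEM (0.552 to 0.580) and at 0.371 times in SCM (0.362 to 0.379), and Col5a3 at 0.0963 times (0.0908 to 0.102) and 0.130 times (0.125 to 0.136).

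Type I collagen was represented by a single chain gene. Col1a2 (chr6:4504814-4541544, plus strand) had 0.742 FPKM in DMEM (268 reads) and 3.15 FPKM in SCM (1433 reads), 4.24-fold higher (3.72 to 4.85), whereas Col1a1, which supplies the major chain of type I collagen, had 0 reads in both libraries. A count of 0 allows Col1a1 at most 0.0157 FPKM in the DMEM library and 0.0125 in the SCM library. Col3a1, another abundant fibroblast collagen, had 1 read in DMEM and 3 in SCM, although it lies tail to tail with Col5a2 on chromosome 1 with 24614 bases between the gene models. The cartilage collagen gene Col2a1 had 0 and 3 reads, and Col24a1 had 0 in both. Col27a1, a fibrillar gene best known from cartilage, had 7.64 FPKM from 2894 reads in DMEM and 6.57 FPKM from 3135 reads in SCM, 1.16-fold lower in SCM (1.11 to 1.22).

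Among the fibril-associated collagens, which sit on the surface of fibrils, 2 of 9 genes were measured. Col16a1 (chr4:130047840-130099283, plus strand) had 0.148 FPKM in DMEM (29 reads) and 1.64 FPKM in SCM (407 reads), 11.1-fold higher (7.63 to 16.8). Col20a1 had 1.45 FPKM from 217 reads in DMEM and 1.87 FPKM from 352 reads in SCM, 1.29-fold higher (1.08 to 1.53). That level is uncertain, because Col20a1 shares 79 exon bases with a long noncoding row on the same strand, 9230112E08Rik, which had 175 and 265 reads. Col7a1, the gene of the anchoring fibrils of skin, had 4.96 FPKM from 1484 reads in DMEM and 3.47 FPKM from 1307 reads in SCM, 1.43-fold lower in SCM (1.33 to 1.54).

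**Figure D2:**
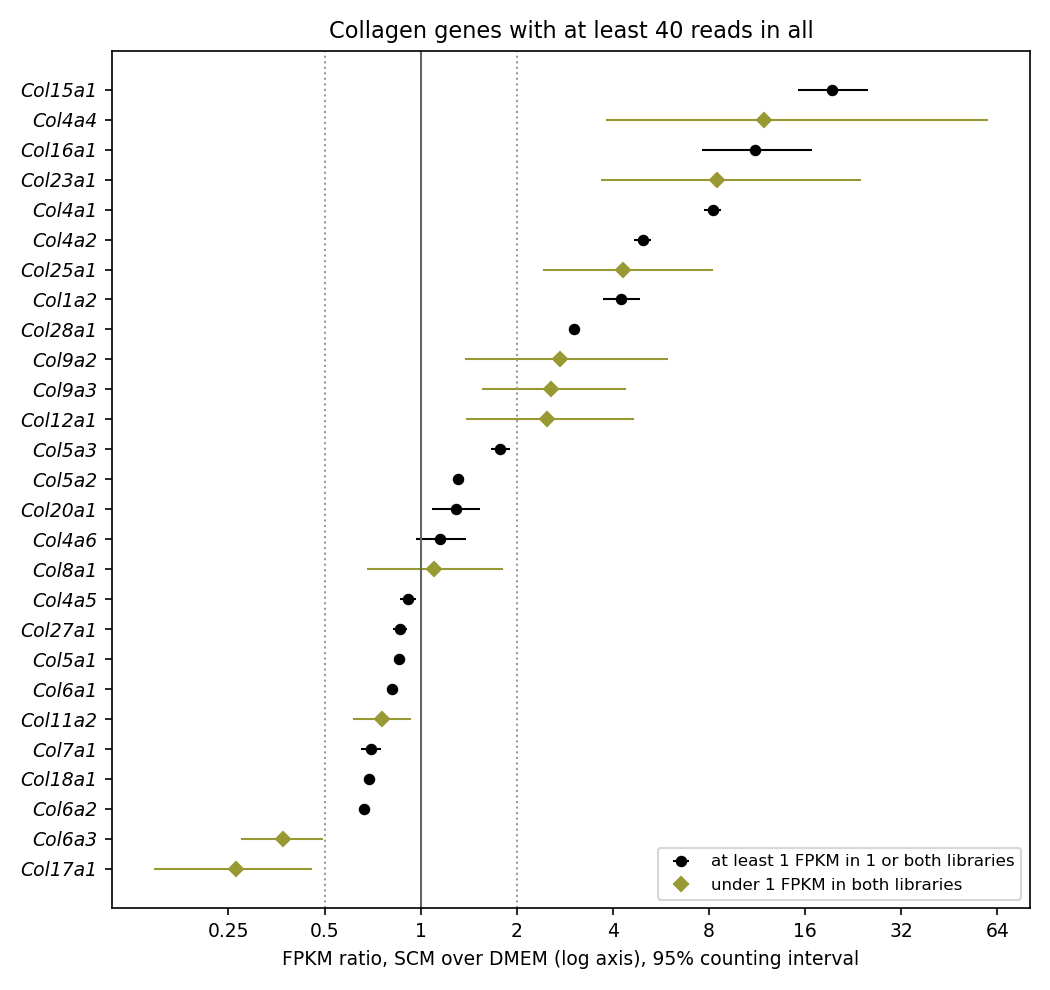
FPKM ratio of SCM over DMEM on a log axis, with 95% counting intervals, for the 27 collagen genes with at least 40 reads over both libraries, with circles for measured genes, diamonds for genes under 1 FPKM in both libraries and dotted lines at 2-fold. Col15a1 is at the top with 19.4-fold, Col17a1 and Col6a3 are at the bottom, and the intervals of the diamonds are wide.

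The 27 genes that were not measured are accounted for by reads. Of these, 10 had 0 reads in both libraries (Col1a1, Col4a3, Col6a4, Col6a5, Col6a6, Col10a1, Col13a1, Col19a1, Col24a1 and Col26a1). A further 7 had between 2 and 9 reads in all, at most 3 in DMEM and at most 8 in SCM, and give no usable ratio. The other 10 had at least 40 reads in all. These low genes are named after their values were seen. By plain FPKM ratio, SCM exceeded DMEM at least 2-fold in 6 of the 10 and fell at least 2-fold below it in 2, beside 16.4% and 11.8% of the 1431 protein-coding rows under 1 FPKM with as many reads.

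Of the low genes that were higher in SCM, Col4a4 went from 3 to 45 reads (11.9-fold, 3.82 to 59.9) and the membrane collagen gene Col23a1 from 6 to 64 (8.46-fold, 3.68 to 23.9). Another membrane collagen gene, Col25a1, went from 14 to 76 reads (4.31-fold, 2.42 to 8.25). The fibril-associated genes Col9a2, Col9a3 and Col12a1 were 2.74-fold (1.37 to 5.94), 2.57-fold (1.56 to 4.41) and 2.48-fold (1.39 to 4.66) higher. The lower genes were the hemidesmosome collagen gene Col17a1, at 54 and 18 reads (3.78-fold lower, 2.18 to 6.85), and Col6a3 (2.71-fold lower, 2.02 to 3.66). Every level among these 10 genes was under 1 FPKM, and the highest was that of Col11a2 at 0.940 FPKM in DMEM.

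The summed level of all 44 genes differed little between the media, at 542 FPKM in DMEM and 584 in SCM, a ratio of 1.08. Its makeup differed more. Col18a1, Col6a1 and Col5a2 were the leading genes in both libraries and took 75.4% of the sum in DMEM and 58.0% in SCM. Type IV genes took 4.36% in DMEM and 15.1% in SCM, and Col28a1 4.36% and 12.2%. The multiplexins took 38.7% and 26.0%, type VI 29.9% and 21.9%, and the fibrillar class 21.3% and 23.3%. Without Col18a1 the summed level was 333 FPKM in DMEM and 439 in SCM, a ratio of 1.32, and without Col18a1 and Col6a1 it was 198 and 329 FPKM, a ratio of 1.66.

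**Figure D3:**
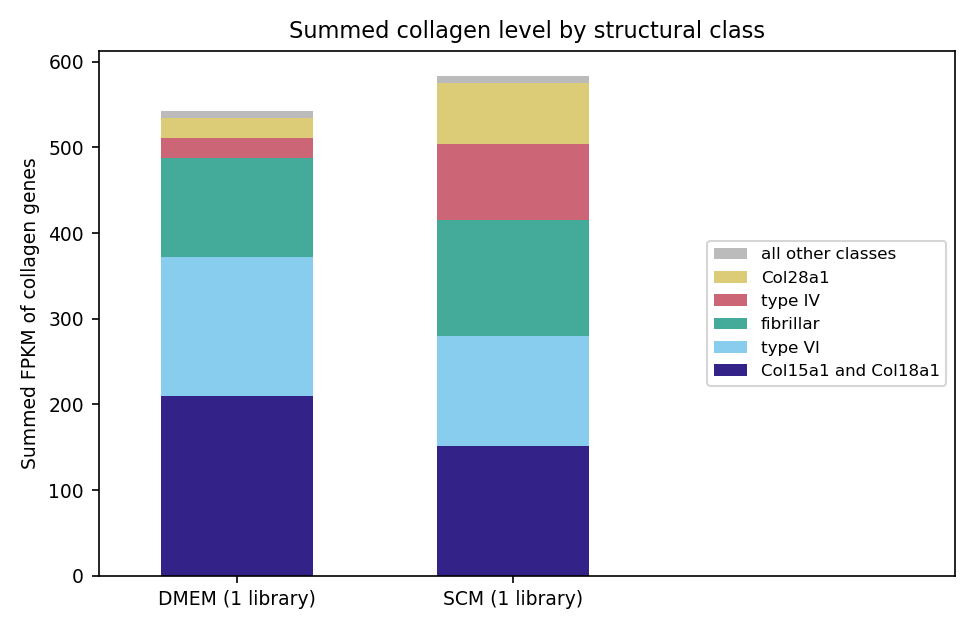
Stacked bars of the summed FPKM of all collagen genes in each library, split by structural class, with the DMEM library at 542 and the SCM library at 584 in all. The type IV and Col28a1 segments are taller in SCM and the segments of type VI and of Col15a1 with Col18a1 are taller in DMEM.

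**Figure D4:**
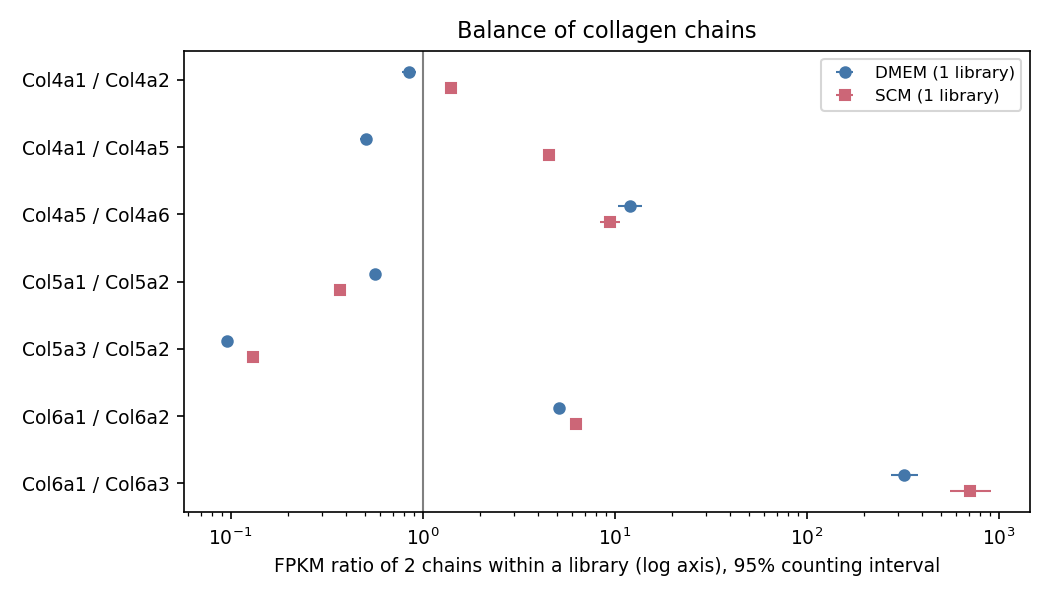
FPKM ratio of chain genes within each library on a log axis, with 95% counting intervals, circles for DMEM and squares for SCM. Col4a1 passes Col4a2 and Col4a5 in SCM only, and Col6a1 exceeds Col6a3 by 322-fold or more in both libraries.

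Chain ratios rest on the gene model lengths of the table, which count every annotated exon. A gene whose cells use a shorter transcript than its model is understated, and isoform use was not analysed here. For this reason a ratio between chains compares the media better than it gives a stoichiometry.

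Collagen chains are hydroxylated, folded and glycosylated in the endoplasmic reticulum, exported, trimmed by proteases and cross-linked outside the cell. Of 36 genes for these steps, 27 were measured, 2 of them past 2-fold upwards in SCM and 3 past it downwards, with a median log2 ratio of -0.07. The background is the 2.48% and 1.44% of measured protein-coding rows given above. Inside the cell, 0 of 6 measured genes for chaperones and export, 0 of 6 for prolyl 3-hydroxylases and their partners and 0 of 4 for prolyl 4-hydroxylases were past 2-fold, and 1 of 4 lysyl hydroxylase and glycosyltransferase genes was (Plod3). P4hb, a subunit of prolyl 4-hydroxylase that is also a disulfide isomerase, had 233 FPKM in DMEM and 191 in SCM. Ppib, a prolyl isomerase of the prolyl 3-hydroxylase complex, had 60.2 and 68.4 FPKM. The collagen chaperone gene Serpinh1 had 82.3 and 82.8 FPKM, and Mia3, which loads procollagen for export, stood at 40.1 and 38.3 FPKM. P4ha3, a catalytic subunit of prolyl 4-hydroxylase named here after its values were seen, had 1.04 FPKM from 95 reads in DMEM and 0.252 FPKM from 29 reads in SCM. This is a plain ratio of 4.13-fold lower in SCM, which the log2 scale with its pseudocount places inside the 2-fold limit. The same holds for Pcolce2, listed with the trimming genes, at 356 reads in DMEM and 219 in SCM (2.05-fold lower). Under 1 FPKM in both libraries, the cross-linking gene Loxl2 went the other way, from 37 to 198 reads (4.24-fold higher, 2.98 to 6.21). Pcolce did so too, from 4 to 30 reads.

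The lower genes of this pathway were a lysyl hydroxylase gene and 2 protease genes. Plod3, a lysyl hydroxylase that also adds sugars and is needed for type IV collagen, had 32.9 FPKM in DMEM (4330 reads) and 15.5 FPKM in SCM (2569 reads), 2.12-fold lower in SCM. The procollagen C-proteinase gene Bmp1 had 21.3 FPKM from 5503 reads in DMEM and 10.2 FPKM from 3304 reads in SCM, 2.10-fold lower in SCM, which sits at the limit. Tll1, a relative of Bmp1, had 5.42 FPKM from 1222 reads in DMEM and 1.22 FPKM from 346 reads in SCM, 4.45-fold lower in SCM. The higher genes were Adamts14, which trims the amino end of fibrillar procollagen, at 1.30 FPKM from 197 reads in DMEM and 5.03 FPKM from 958 reads in SCM, and the cross-linking enzyme gene Loxl1, at 2.22 FPKM from 213 reads in DMEM and 5.98 FPKM from 723 reads in SCM. Pxdn, the peroxidase that cross-links type IV collagen, was the most abundant cross-linking gene in DMEM, at 6.67 FPKM there and 4.57 in SCM, where Loxl1 stood above it.

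Of 13 collagen receptor genes, 8 were measured, 1 was at least 2-fold higher in SCM and 0 lower, beside 2.48% and 1.44% of measured protein-coding rows, and the median log2 ratio was 0.16. The higher gene was Itga2, an integrin subunit that binds collagen, at 1.14 FPKM in DMEM (237 reads) and 4.28 FPKM in SCM (1119 reads). Its partner Itgb1 was the most abundant receptor gene, at 285 and 263 FPKM. Ddr1, a receptor tyrosine kinase for collagen, had 44.1 and 32.8 FPKM. The adhesion receptor genes Adgrg1 and Adgrg6 had 41.4 and 52.5 FPKM and 16.7 and 20.5 FPKM, and the product of Adgrg6 is a receptor for type IV collagen that Schwann cells need to myelinate. Cd44 had 72.4 FPKM in DMEM and 75.0 in SCM. Lair1, an inhibitory collagen receptor named after its values were seen, had 4.71 FPKM from 1025 reads in DMEM and 2.02 FPKM from 554 reads in SCM, a plain ratio of 2.33-fold lower in SCM that lay inside the limit on the log2 scale (-0.92).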

How the data were processed

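Stranded libraries were prepared from total RNA of TgS1 cells with a SMARTer kit and adapted to a DNBSEQ instrument, per the labels' protocols. The 2 libraries, 1 per medium, were grouped by sample title. Their column names end in the numbers 1 (DMEM) and 3 (SCM), which the labels do not explain, so whether each is 1 of several cultures is not known. The authors deposited FPKM values and gene lengths for 55323 rows, per the file headers. Trim Galore, STAR 2.7.9a, featureCounts 2.0.1, cutadapt 3.1, Trimmomatic 0.39 and the builds mm10 and GRCm38.p6 stand in the submitters' processing notes without roles, and no strand setting of counting is stated. Positions in the table equalled those of GENCODE M21 (GRCm38) for 3 of the 44 collagen genes, although the span of the gene had the same length for 43. Printed positions therefore come from that annotation, matched by gene identifier.

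FPKM times gene length in kilobases was a whole multiple of 1 read in 100% of rows (tolerance 0.01 read), which gave 29085791 reads in DMEM and 36666676 in SCM. No count model and no test was applied, because each medium has 1 library. A count of 0 was taken to allow 3 reads, which for a gene of 1 kb is 0.103 FPKM in the DMEM library and 0.0818 in the SCM library. The filter was 1 FPKM in 1 or both libraries, the pseudocount 1 FPKM and the limit 2-fold. Python 3.11.15, pandas 2.3.3 and SciPy 1.17.1 were used. The steps were run on simulated reads drawn with counting error only, which checks the arithmetic and says nothing on variation between cultures. Every measured collagen gene is named. From the synthesis and receptor lists, genes past 2-fold and the most abundant gene of each step or receptor family are named. Mia3, P4ha3, Pcolce2, Loxl2, Pcolce, Adgrg6 and Lair1 were added after their values were seen. The collagen rule, classes and lists were chosen with earlier results of these data known. Alternatives changed the pseudocount, filter, scaling, unit (TPM computed from the deposited FPKM), threshold and overlapping rows. Protein sequences were not analysed here, and 1 gene of the Schwann cell marker list is not reported here.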

Additional observations from a re-analysis of the deposited data

How the results depend on the processing

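With 1 library per medium no replicate could be left out, and depth limits the genes with few reads. No paired analysis was possible because each medium has 1 library. The count of collagen genes at least 2-fold lower was 0 under all 11 alternatives, but several of them could not have raised it. A larger pseudocount, a stricter filter, fewer rows or an added interval can only remove calls. With no filter, genes under 1 FPKM in both libraries still cannot reach the limit at a pseudocount of 1 FPKM. By plain ratio, the low genes Col17a1 and Col6a3 were 3.78-fold and 2.71-fold lower in SCM. The count at least 2-fold higher was 6 as reported and lay between 4 and 7 under all but 2. It was 3 without the rows that overlap another row. That setting removes 7 of the 17 measured genes, among the higher ones Col4a1, Col4a2 and Col15a1. The count was also 3 with at least 1 FPKM in both libraries, a condition added after the data were seen. Col16a1 and Col1a2 fell out with a pseudocount of 3 FPKM or a filter of 5 FPKM. A 1.5-fold limit added Col5a3.

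The median log2 ratio of measured collagen genes (0.23) had no stable sign. It was -0.0085 without overlapping rows and -0.12 with at least 1 FPKM in both libraries, 0.34 with a pseudocount of 0.1 FPKM, 0.13 with one of 3 FPKM, 0.13 with a filter of 5 FPKM and 0.0025 with no filter. The summed ratio (1.08) was 1.10 after rescaling to a median log2 ratio of 0, 1.03 in TPM and 1.09 without overlapping rows. The last setting goes by span and also drops Col18a1, Col5a2 and Col5a1. Col18a1 and Col5a2 share 0 exon bases with the measured rows that they overlap. Without Col18a1 alone the ratio was 1.32, so the 1.09 does not show how shared reads bear on the sum. The count of synthesis genes 2-fold apart (5) was 0 with a pseudocount of 3 FPKM, 4 after rescaling, where Bmp1 lay just inside the limit, 4 without overlapping rows, 6 with a pseudocount of 0.1 FPKM, and 7 in TPM and at 1.5-fold. The receptor count (1) was 2 with a pseudocount of 0.1 FPKM, in TPM and at 1.5-fold, and 0 with a pseudocount of 3 FPKM or a filter of 5 FPKM. No collagen gene called 2-fold apart changed sign under another pseudocount, scaling or unit, but these settings left almost no room for it. A pseudocount cannot change the sign of a ratio. Rescaling and TPM each apply 1 factor to all genes, and rescaling only moved a median log2 ratio of -0.035 to 0.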

Other observations

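Some collagen genes lie beside each other on a chromosome of GRCm38. On chromosome 1, Col9a1 and Col19a1 lie 9205 bases apart, and Col9a1 had 0 reads in DMEM and 3 in SCM while Col19a1 had 0 in both. On chromosome 10, Col6a2, Col6a1 and Col18a1 lie on the minus strand, with 85161 bases between the type VI genes and 326009 bases between Col6a1 and Col18a1. These 3 genes were all lower in SCM and all within 2-fold. Of measured protein-coding rows, 45.6% lay above 0 on the log2 scale, so lower values were common. A link to position was not tested. On chromosome 9, Col6a4, Col6a5 and Col6a6 lie side by side and had 0 reads in both libraries.

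Markers of bone, cartilage, vessel wall, perineurium and macrophages were partly present. Runx2, a transcription factor of bone-forming cells, had 63.0 FPKM in the DMEM library and 50.7 in the SCM library, while the matrix genes Acan and Bglap had 1 read each in DMEM and 0 in SCM, and Matn1 and Ibsp had 0 in both. The 5 pericyte and smooth muscle markers summed to 8.01 and 10.8 FPKM, nearly all of it from Pdgfrb at 7.86 and 10.6 FPKM. The 5 macrophage markers summed to 1.42 and 1.51 FPKM, nearly all from Cd68. The 5 perineurial markers summed to 34.6 FPKM in DMEM and 48.4 in SCM. Most of this came from Tjp1, a tight junction scaffold gene, at 30.6 and 41.1 FPKM, and the glucose transporter gene Slc2a1 was also measured, with 316 reads in DMEM and 388 in SCM. Itgb4, which Schwann cells also express, stood at 0.941 and 4.25 FPKM and was the only measured marker of these lists past 2-fold, and Cldn1 and Lypd2 had 0 reads in both libraries. The part of such cells in the collagen values was not tested.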
